A study of Mus musculus with 8 samples.

Results

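The Ltf-high neutrophils described here were 1331 of the 12564 cell barcodes recovered from mouse tibia by single-cell RNA sequencing. They were selected on measured values: a barcode had to hold at least 1000 genes, at most 20% mitochondrial counts, Ltf at 20 or more and S100a8 at 50 or more unique molecular identifiers (UMIs, counted transcripts) per 10000, Fcnb below 5 and the sum of Elane, Prtn3 and Mpo below 40 per 10000. Of the 7989 barcodes past the gene and mitochondrial limits they made up 16.7% (exact binomial interval 15.8 to 17.5), and of the 2465 with S100a8 past its limit they made up 54.0% (52.0 to 55.98). The animals carried MMP14 F/+ and COL10A1cre, together with the reporters R26-tdT and Col1a1-2.3-GFP, and were taken at postnatal day 56, 8 weeks of age, with no treatment, and all cells shared this genotype. COL10A1cre acts in hypertrophic chondrocytes and neither reporter is designed to mark blood cells. Tissue from 3 mice was pooled, and the 8 labelled samples form 1 group whose barcodes carry no mark of sample or mouse, with 1 barcode suffix and no barcode repeated. There was hence no replicate and no test between conditions, and every interval given is at 95% and covers counting error only. The digestion was designed to release cells of trabecular bone and growth plate and to remove most blood cells, so the shares above describe the digest, not the marrow.

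Neutrophils mature in the bone marrow from dividing granulocyte precursors. Their granule proteins are made in sequence: the serine proteases and myeloperoxidase of primary granules first, lactoferrin, lipocalin 2 and cathelicidin of secondary granules next, and gelatinase of tertiary granules last, followed by the chemokine and chemoattractant receptors of cells ready to leave the marrow. The transcription factor C/EBP epsilon is required for secondary granules to form, and cells are held to stop dividing while these granules are made.

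All S100a8-high barcodes fall into 1 of 4 sets by the same limits. Besides the Ltf-high neutrophils these are 390 Ltf-high, precursor-high cells, which passed the Ltf limit but also the limit for Fcnb (377 cells), for Elane, Prtn3 and Mpo (7 cells) or both (6 cells), 255 Ltf-low, precursor-high cells and 489 Ltf-low, precursor-low cells. The order in which they are given below, Ltf-low precursor-high, Ltf-high precursor-high, Ltf-high neutrophils and Ltf-low precursor-low, is an order of description and not a measured time course. Median depth differed between the sets, at 18955, 14847, 6697 and 4060 UMIs per cell, and median genes detected at 3543, 2905, 1620 and 1212. Levels are hence given as summed UMIs per 1000000 UMIs of the set (counts per 1000000, CPM). Shares of cells are given at equal depth unless said otherwise.

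The submitters' labels call all cells chondro-osteogenic, which the markers of these cells went against. Summed chondrocyte markers were at 1002 CPM over all 1331 cells, against 45618 in 364 chondrocytes, and summed markers of osteoblasts or stroma at 482. Only 8 of the 1331 cells held the first at 20 or more per 10000 and 5 the second. Ptprc, the leukocyte antigen CD45, had a UMI in 76.0% of the cells at 3000 UMIs, against 4.61% of chondrocytes (95.9% and 16.2% without thinning). The neutrophil identity was then checked against its 4 given markers. Ltf, which encodes the iron-binding protein lactoferrin, was used by the rule and stood at 11192 CPM (11131 to 11255) in the Ltf-high neutrophils, against 239, 8586 and 398 in the other sets. Lcn2, which encodes the siderophore-binding protein lipocalin 2, was detected in all 1331 cells, at 11.4 to 361 UMIs per 10000 per cell with a median of 136. Cd177, a surface glycoprotein of neutrophils, was detected in 99.6% of the cells with a median of 11.4 per 10000. The shares of Lcn2 and Cd177 are without thinning. Ly6g, the surface antigen by which mouse neutrophils are commonly sorted, was detected in 88.1%, and in 72.1% after each cell was thinned to 3000 UMIs. Such shares have a background: in chondrocytes, which should lack these genes, a UMI of Ltf was found in 6.69%, of Lcn2 in 10.7%, of Cd177 in 2.35% and of Ly6g in 1.16% of 359 cells thinned in the same way (the 364 chondrocytes had a median of 16580 UMIs before thinning). Of the 364, 11 held the 4 neutrophil markers at 20 or more per 10000, and the parts of free RNA and of doublets in this background were not tested. Ly6g was thus above that background at equal depth, and Lcn2 and Cd177 by their shares without thinning, while Ltf was so by selection. Whether the cells are past division was not measured, and some held transcripts of proliferation genes, so they are called here by their leading gene.

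Some of the barcodes carried transcripts of other cells. Of the 1331, 127 (9.54%) held globins at 500 or more per 10000 or the markers of B cells, erythroid cells, chondrocytes, osteoblasts or stroma, or endothelium at 20 or more per 10000, and are called mixed barcodes below. Globins marked 67 of them, B cell markers 48, erythroid markers 33, chondrocyte markers 8, osteoblast or stromal markers 5 and endothelial markers 2. The median depth of the mixed barcodes was 12526 UMIs against 6464 in the other 1204. The summed chondrocyte markers were at 1002 CPM with them and 43.8 without, the B cell markers at 202 and 66.6 and the erythroid markers at 289 and 31.0. Monocyte or macrophage markers passed 20 per 10000 in 85 cells, and 92.0% of their UMIs were from Ly6c2 alone. Of the 3 blood progenitor and 3 osteoclast markers, no cell passed that limit. The share of mixed barcodes was 4.71% and 4.36% in the precursor-high sets and 21.1% in the Ltf-low, precursor-low set. Gene ratios that moved by over 1.5-fold without these barcodes are given both ways where enough UMIs were left, as are counts of 5 or more genes that did so and medians that changed sign.

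Most secondary granule genes set the cells apart from each of the Ltf-low sets, but few did so from the Ltf-high, precursor-high cells. Camp, which encodes the cathelicidin precursor, stood at 26465 CPM in Ltf-low, precursor-high cells, 68404 in Ltf-high, precursor-high cells, 44269 (44145 to 44392) in the Ltf-high neutrophils and 2558 in Ltf-low, precursor-low cells. Ngp, neutrophilic granule protein, followed at 8244, 40165, 35377 (35267 to 35487) and 3561. Both genes were thus highest in the Ltf-high, precursor-high cells. Lcn2 was at 1433, 14290, 13824 (13755 to 13893) and 3742, with a log2 ratio of -0.05 (-0.06 to -0.04) against the Ltf-high, precursor-high cells and of 1.89 (1.86 to 1.91) against the Ltf-low, precursor-low cells. Chil3, which encodes a chitinase-like protein, was at 1994, 10580, 6150 and 301. Cd177 at 93.3, 806, 1092 and 381 CPM and Olfm4, which encodes the matrix glycoprotein olfactomedin 4, at 24.1, 103, 222 and 64.1 had their highest level in the Ltf-high neutrophils, as had Ltf by selection. Lyz2, which encodes lysozyme, was at 1642, 9835, 9870 and 4169, nearly equal in both Ltf-high sets. Hp and Pglyrp1, for haptoglobin and a peptidoglycan recognition protein, differed by less than 2-fold between the Ltf-high neutrophils and every other set.

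**Figure D1:**
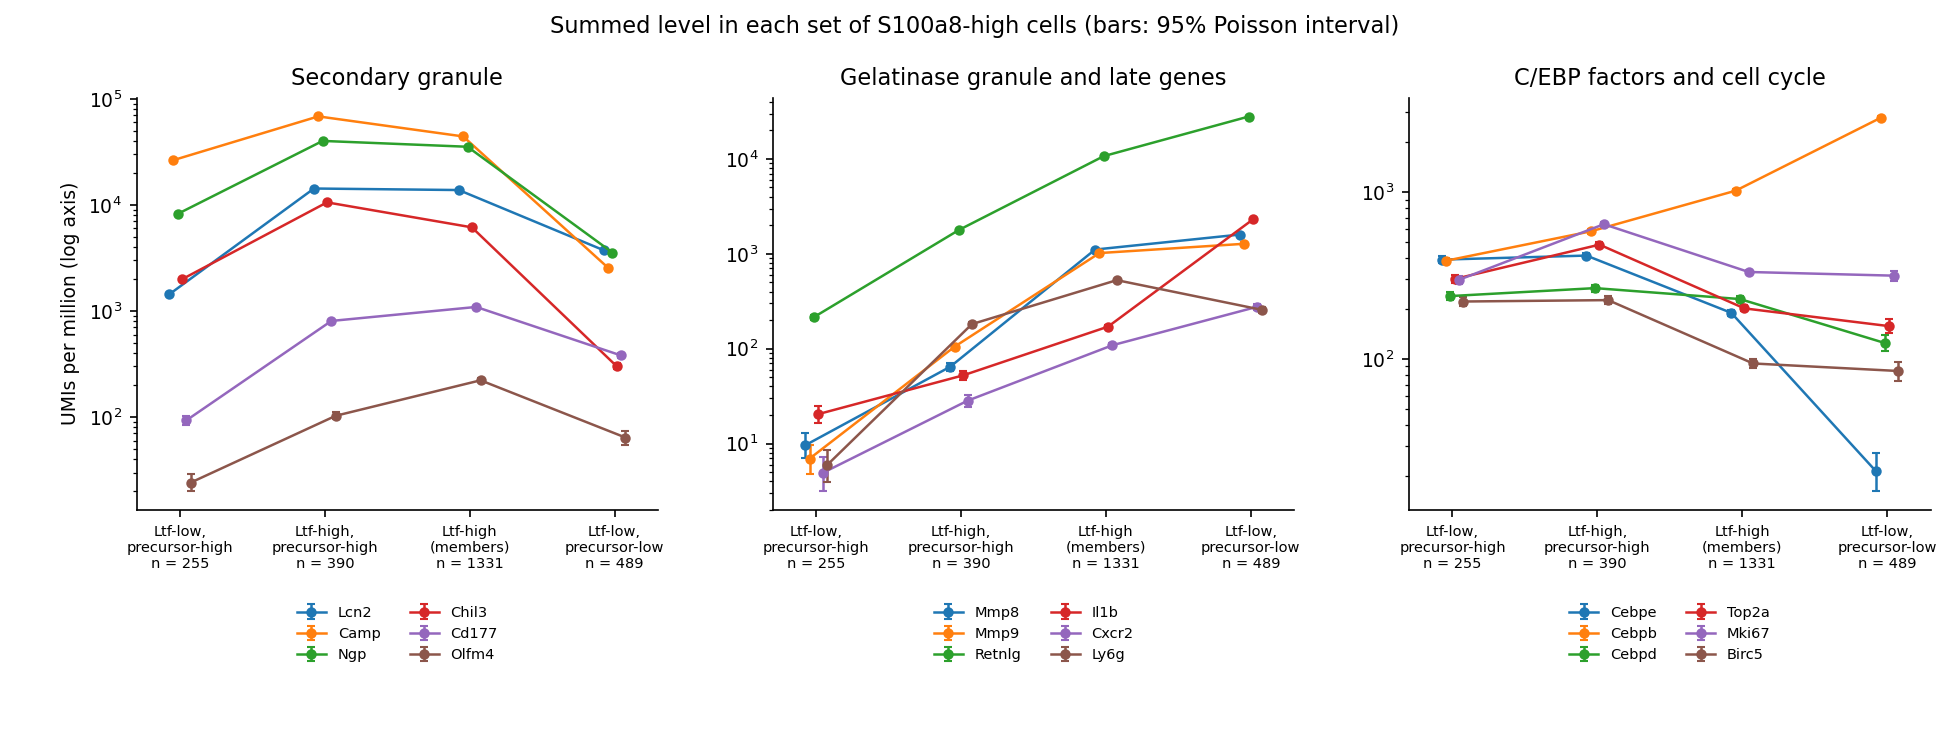
Summed level of 18 genes in CPM on a log axis (vertical) in the 4 sets of S100a8-high cells (horizontal), with bars for the 95% Poisson interval. Secondary granule genes are high in both Ltf-high sets, Mmp8, Mmp9 and Retnlg are highest in the Ltf-low, precursor-low set, and Cebpe is lowest there at 21.1 CPM.

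Counted over the list of 11 secondary granule genes, 10 entered the comparison with Ltf-low, precursor-low cells (Ltf is left out as part of the rule): 7 were at least 2-fold higher in the Ltf-high neutrophils, none lower, with a median log2 ratio of 1.66. Of all 8523 genes compared, 4.68% were at least 2-fold higher and 15.9% at least 2-fold lower, with a median of -0.18. Without mixed barcodes these were 10.7% and 11.9% of 7466 genes with a median of 0.02, while 6 of the 10 list genes were higher and none lower. Against Ltf-low, precursor-high cells the same list had 7 of 10 higher and none lower (19.5% and 27.6% of 8847 genes), and its median was 2.34. Against Ltf-high, precursor-high cells it had 2 of 10 higher, Mmp8 and Olfm4, none lower and a median of -0.08 (0.01 without mixed barcodes), where 10.8% of 8647 genes were higher and 7.93% lower. Against all 744 Ltf-low cells together, the comparison named in the rule, 7 of 10 were higher and none lower (4.14% and 22.5% of 9365 genes). That pooled set holds cells from either side, so its parts are used in what follows.

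The sequence before the RefSeq start is shown for genes whose levels the comparison turns on, because C/EBP factors are known regulators of granule genes. RefSeq gives a promoter window in GRCm38.p6 for 10 of the 11 secondary granule genes. In the 250 bases before the start, the C/EBP motif TTGCNNAA, searched on both strands, was found in 4 of these 10, Ltf, Lcn2, Ngp and Mmp8, and in 9.56% of 32851 windows of the same length. The first base of the motif lay 75 bases before the start in Ltf (chr9:111019042-111019291, plus strand), 216 before it in Lcn2 (chr2:32387740-32387989, minus strand), 138 and 11 before it in Ngp (chr9:110419558-110419807, plus strand) and 19 before it in Mmp8 (chr9:7558179-7558428, plus strand). Retnlg and Ly6g, which are not on this list, also held a match, with its first base 246 and 232 bases before the start. Camp (chr9:109849457-109849706, minus strand) had no match in this window and is printed for contrast. Capitals mark the motif. Another gene annotation places some starts elsewhere. By it the Lcn2 window lies wholly within the gene (chr2:32384633-32388252). The Ltf, Ngp and Camp windows reach into their genes, which start at 111019271, 110419747 and 109849617. A match of letters is not a measured binding site, and its absence in this window says nothing of the factor.
Ltf: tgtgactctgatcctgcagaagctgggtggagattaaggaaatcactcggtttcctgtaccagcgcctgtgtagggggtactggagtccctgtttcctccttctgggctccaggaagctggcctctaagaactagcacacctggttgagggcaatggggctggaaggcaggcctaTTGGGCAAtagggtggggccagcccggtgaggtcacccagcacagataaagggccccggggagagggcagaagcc
Lcn2: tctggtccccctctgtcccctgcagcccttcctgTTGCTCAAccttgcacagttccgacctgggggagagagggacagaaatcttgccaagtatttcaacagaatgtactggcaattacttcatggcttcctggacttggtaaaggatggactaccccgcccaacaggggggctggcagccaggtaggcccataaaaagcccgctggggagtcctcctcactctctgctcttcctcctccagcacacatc
Ngp: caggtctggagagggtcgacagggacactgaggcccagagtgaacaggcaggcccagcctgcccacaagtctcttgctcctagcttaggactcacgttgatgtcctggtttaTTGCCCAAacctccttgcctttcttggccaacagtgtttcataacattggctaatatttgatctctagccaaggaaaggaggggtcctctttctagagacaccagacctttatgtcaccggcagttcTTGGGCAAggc
Mmp8: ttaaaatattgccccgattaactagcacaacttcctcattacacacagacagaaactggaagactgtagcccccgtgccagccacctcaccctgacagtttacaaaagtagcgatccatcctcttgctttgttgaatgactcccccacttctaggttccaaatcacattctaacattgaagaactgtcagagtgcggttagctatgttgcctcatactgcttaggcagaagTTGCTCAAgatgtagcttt
Camp: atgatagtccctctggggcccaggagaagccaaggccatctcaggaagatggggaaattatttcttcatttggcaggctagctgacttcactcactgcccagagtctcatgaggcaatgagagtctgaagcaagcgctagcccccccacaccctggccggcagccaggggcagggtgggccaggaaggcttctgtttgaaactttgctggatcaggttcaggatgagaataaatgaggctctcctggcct

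Primary granule genes were low, in part by selection. Elane, Prtn3 and Mpo were limited by the rule. Ctsg, which encodes cathepsin G and was not used by it, was at 8.41 CPM in the Ltf-high neutrophils, 90.7 in Ltf-high, precursor-high cells and 3140 in Ltf-low, precursor-high cells, a log2 ratio of -8.54 (-8.85 to -8.25) against the last. The sets were divided in part on Elane, Prtn3 and Mpo, genes of the same list, so this ratio is given as a description. At 3000 UMIs a UMI of Ctsg was found in 2.69% of Ltf-high neutrophils, 2.28% of chondrocytes and 3.18% of B cells, so that these shares do not show expression of Ctsg above background. Cd63, a granule membrane protein found also in other cells, made up 79.2% of the list's UMIs in the Ltf-high neutrophils at 411 CPM.

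Genes of the collagenase and gelatinase, by contrast, separated the Ltf-high neutrophils from the Ltf-high, precursor-high cells. Mmp8, the neutrophil collagenase, was at 9.61, 64.5, 1108 (1088 to 1128) and 1595 CPM across the 4 sets, and Mmp9, gelatinase B, at 6.95, 105, 1018 (999 to 1037) and 1275. The log2 ratio against Ltf-high, precursor-high cells was 4.10 (3.96 to 4.25) for Mmp8 and 3.28 (3.16 to 3.39) for Mmp9, while against Ltf-low, precursor-low cells it was -0.53 (-0.58 to -0.48) and -0.32 (-0.38 to -0.27). A UMI of Mmp8 was found in 62.7% of Ltf-high neutrophils at 3000 UMIs, in 6.87% of Ltf-high, precursor-high cells and in 1.73% of chondrocytes. Of the 8 tertiary granule genes 7 could be compared: 4 were at least 2-fold higher and none lower than in Ltf-high, precursor-high cells (median log2 ratio 1.80), and 2 were higher and 1 lower than in Ltf-low, precursor-low cells (median 0.42). The lower gene was Slc11a1, which encodes a metal transporter of phagocyte granules, at 22.3 against 94.6 CPM. Of all genes, 10.8% were at least 2-fold higher and 7.93% lower than in Ltf-high, precursor-high cells. Against Ltf-low, precursor-low cells these shares were 4.68% and 15.9%.

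**Figure D2:**
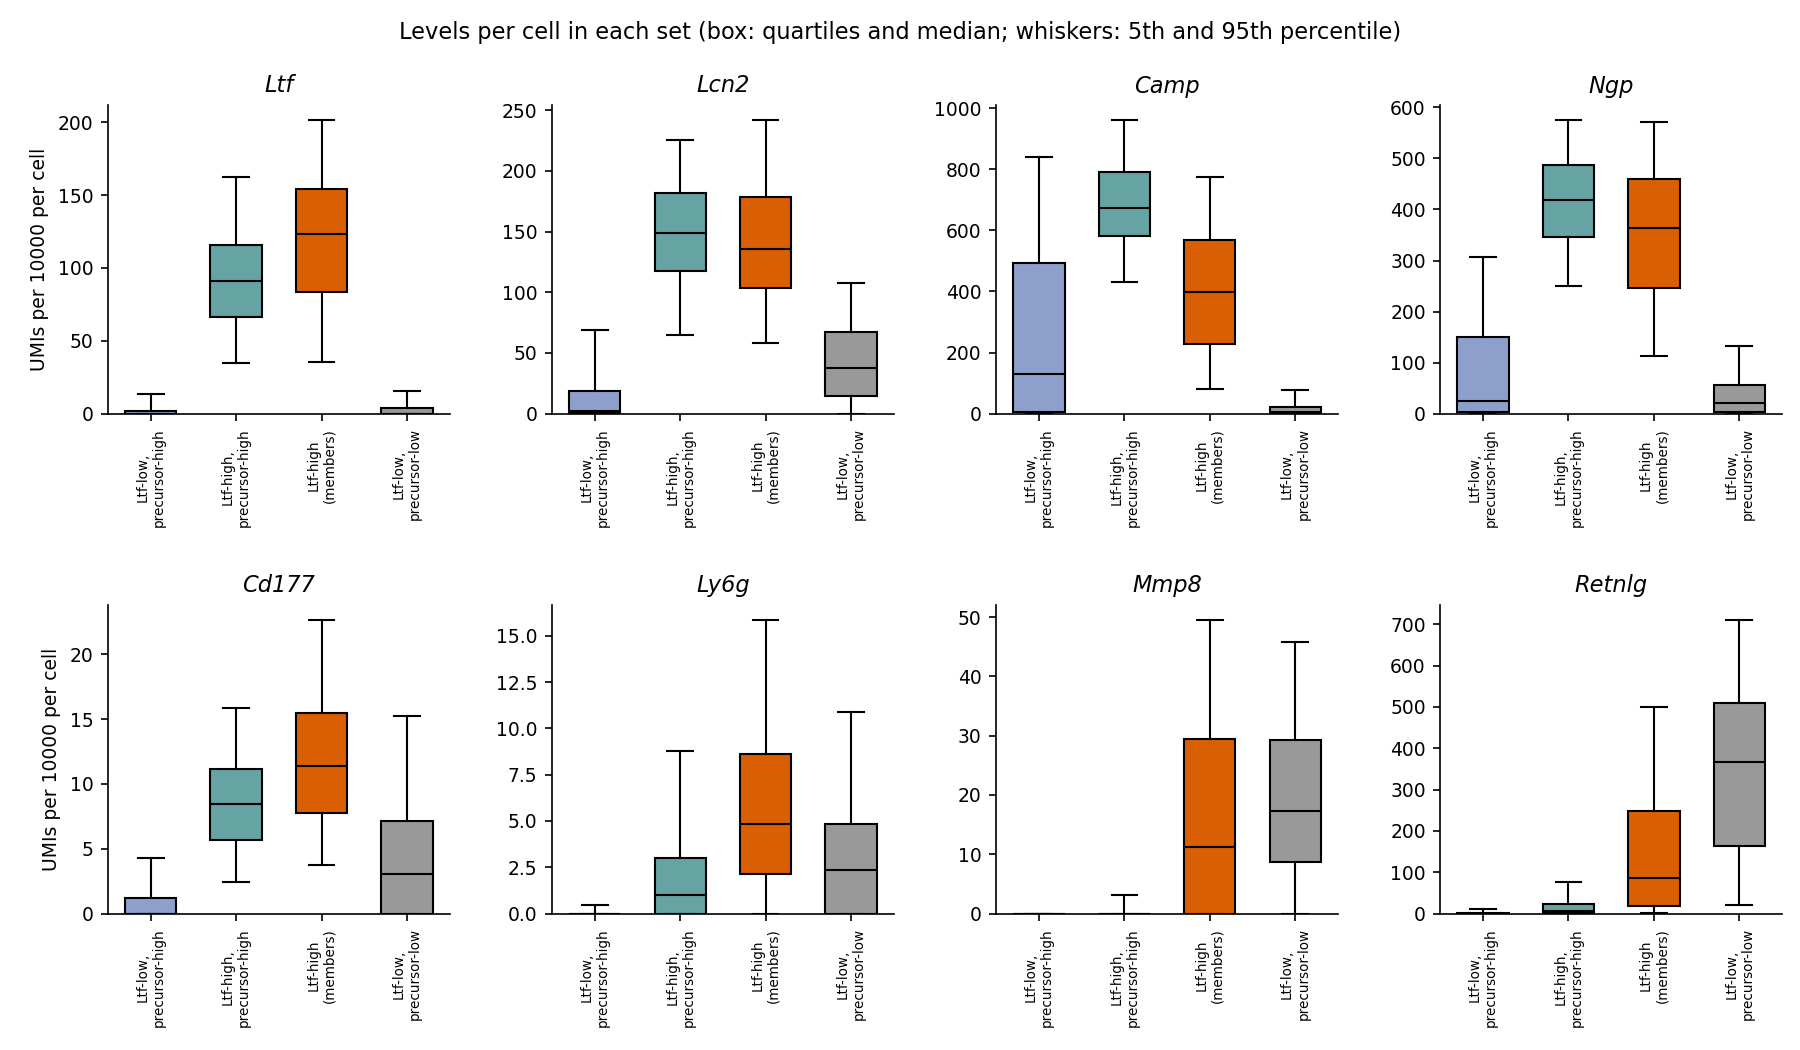
Level per cell in UMIs per 10000 (vertical) of 8 genes in the 4 sets (horizontal), with boxes for the quartiles and median and whiskers for the 5th and 95th percentile. Ltf was used for the selection. The median of Mmp8 is 11.3 per 10000 in the Ltf-high neutrophils and 0 in both precursor-high sets, and that of Retnlg is 86.3 in the Ltf-high neutrophils and 366 in Ltf-low, precursor-low cells.

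Many surface receptors and late genes had an intermediate level. Retnlg, a resistin-like secreted protein of neutrophils, was at 215, 1782, 10693 (10632 to 10754) and 27944 CPM. Cxcr2, the receptor for chemokines that draw neutrophils out of the marrow, was at 4.91, 28.3, 109 and 277, and Fpr1, a receptor for bacterial formyl peptides, at 0.818, 17.4, 129 and 240. Each of these levels was higher from set to set in the order given. Il1b, the cytokine interleukin 1 beta, was at 171 CPM in the Ltf-high neutrophils and 2304 in Ltf-low, precursor-low cells, a log2 ratio of -3.75 (-3.83 to -3.68), and the chemokine gene Ccl6 at 58.0 and 855. Of the 22 genes for surface receptors and adhesion, 14 were at least 2-fold higher than in Ltf-high, precursor-high cells and none lower (median log2 ratio 1.13), and 2 were higher and 12 lower than in Ltf-low, precursor-low cells (median -1.14). Of the 16 late neutrophil genes the counts were 10 higher and 1 lower against the first (median 1.15) and 1 higher and 12 lower against the second (median -1.44). Of all genes, 10.8% were at least 2-fold higher and 7.93% lower against the first, and 4.68% and 15.9% against the second.

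Ly6g and Ceacam1 departed from that pattern. Ly6g was at 5.93, 182, 528 (514 to 541) and 257 CPM and so had its highest level in the Ltf-high neutrophils, with a log2 ratio of 1.04 (0.93 to 1.15) against Ltf-low, precursor-low cells that became 0.73 without mixed barcodes. Ceacam1, an adhesion receptor, was at 71.4, 213, 206 and 56.3. Cxcr4, which retains cells in the marrow, was at 36.6, 55.2, 89.3 and 276, and thus was, like Cxcr2, highest in the Ltf-low, precursor-low cells. B cells, some of which were among the mixed barcodes, held Cxcr4 at 295. Among the late genes Wfdc21, which encodes a whey acidic protein domain protein, was the only 1 at least 2-fold higher than in Ltf-low, precursor-low cells. It was at 3304 against 1445 CPM (log2 ratio 1.19). Without mixed barcodes that ratio was 0.94, and 14 of 15 late genes were at least 2-fold lower and none higher, where 11.9% and 10.7% of all genes were. Srgn made up 56.1% of the late genes' UMIs in Ltf-low, precursor-high cells. Of 15 late genes compared with those cells, 12 were at least 2-fold higher and 1 lower in the Ltf-high neutrophils.

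**Figure D3:**
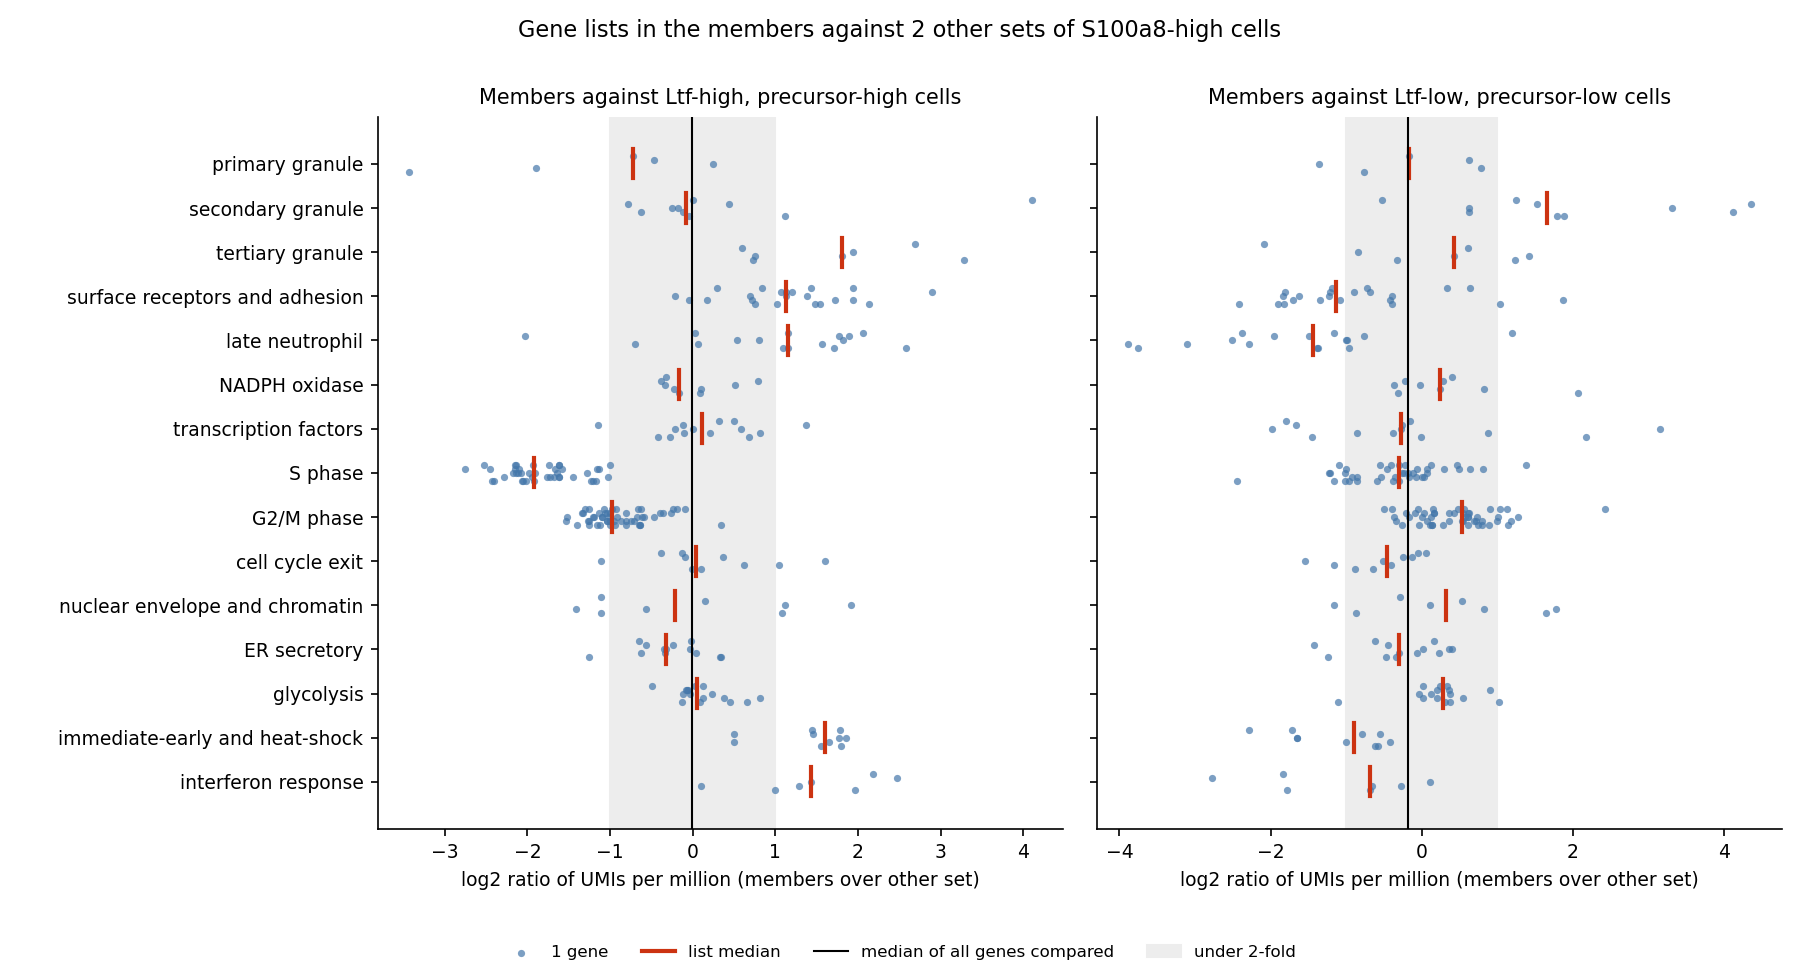
Log2 ratio of CPM, Ltf-high neutrophils over the other set (horizontal), for each gene of the 15 lists (vertical), against Ltf-high, precursor-high cells at left and Ltf-low, precursor-low cells at right. Red bars are list medians, the black line is the median of all genes compared and the grey band is under 2-fold. Tertiary granule, surface receptor and late genes lie to the right in the left panel, and surface receptor and late genes to the left in the right panel.

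The factors of the C/EBP family ran in opposite directions across the sets. Cebpe was at 393, 416, 189 and 21.1 CPM, with a log2 ratio of -1.14 (-1.22 to -1.06) against Ltf-high, precursor-high cells and of 3.16 (2.78 to 3.56) against Ltf-low, precursor-low cells. Cebpb was at 387, 580, 1017 and 2777, and Cebpd at 238, 265, 228 and 124. Spi1, which encodes the myeloid factor PU.1, was at 303, 319, 296 and 299, with log2 ratios from -0.11 to -0.01 against the other sets. Klf5, a zinc finger factor, was at 31.1, 103, 119 and 26.5, a log2 ratio of 2.17 (1.83 to 2.53) against Ltf-low, precursor-low cells. Junb, a subunit of AP-1, was at 154, 217, 559 and 2206. Of the 14 factors listed, 1 was higher and 1 lower against Ltf-high, precursor-high cells, near the 10.8% and 7.93% of all genes. Of 13 compared with Ltf-low, precursor-low cells, 2 were higher and 4 lower, where 4.68% and 15.9% of all genes were.

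Genes of the oxidative burst and of metabolism were compared next. Cybb, which encodes the catalytic subunit of the phagocyte NADPH oxidase, was at 583, 1841, 1964 and 469 CPM, and it was the 1 of 9 oxidase genes at least 2-fold higher than in Ltf-low, precursor-low cells. None of the 9 differed by 2-fold from the Ltf-high, precursor-high cells, nor did 7027 of all 8647 genes. Of 16 glycolysis genes none differed by 2-fold from those cells either, and 1 was higher and 1 lower than in Ltf-low, precursor-low cells, where 4.68% and 15.9% of all genes were. These were Ldha, lactate dehydrogenase A, at 635 against 312 CPM (log2 ratio 1.03, and 0.92 without mixed barcodes), and Slc2a1, a glucose transporter, at 22.7 against 49.1. Genes of the secretory pathway differed mainly from the Ltf-low, precursor-high cells. There 27.6% of all 8847 genes were at least 2-fold higher than in the Ltf-high neutrophils, and so were 12 of 13 secretory genes. Among them Hspa5, the endoplasmic reticulum chaperone BiP, was at 924 against 430 CPM and Sec61b, a subunit of the translocon, at 1205 against 261. The genes of ribosomal proteins behaved alike, 76 of 87 being at least 2-fold lower in the Ltf-high neutrophils than in Ltf-low, precursor-high cells with a median log2 ratio of -2.11, but 8 of 87 lower than in Ltf-high, precursor-high cells with a median of -0.62, a share near the 7.93% of all genes. Without mixed barcodes the latter count was 17 of 87 (median -0.72), where 10.4% of all genes were lower.

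Genes of the nuclear lamina and chromatin were mixed in direction. Lmnb1, which encodes lamin B1, was at 199, 363, 767 and 1405 CPM. The histone variant gene H2afz ran the other way at 3482, 4259, 2866 and 841. Padi4, whose product citrullinates histones, was at 10.4, 49.3, 107 and 98.9, so that the Ltf-high neutrophils and the Ltf-low, precursor-low cells did not differ within counting error (log2 ratio 0.11, -0.08 to 0.31). Among genes of cell cycle exit, Btg2, an antiproliferative gene, was at 41.7, 94.95, 288 and 844. Of the 10 genes on that list 2 were at least 2-fold higher and 1 lower than in Ltf-high, precursor-high cells (median log2 ratio 0.05), and none higher and 2 lower than in Ltf-low, precursor-low cells (10.8% and 7.93% of all genes in the first comparison, 4.68% and 15.9% in the second). Immediate-early and heat-shock genes, which respond to handling among other stimuli, were at least 2-fold higher in 8 of 10 cases than in Ltf-high, precursor-high cells and lower in 5 of 10 than in Ltf-low, precursor-low cells. Without mixed barcodes the first count was 5 of 8, where 7.96% of all genes were higher. Of 7 interferon response genes compared 6 were higher than in Ltf-high, precursor-high cells, and 3 were lower than in Ltf-low, precursor-low cells. Ifitm3 made up 81.4% of the list's UMIs in the Ltf-high neutrophils at 713 CPM. The shares of all genes given above apply to both of these lists with all barcodes.

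S phase genes were lower than in either precursor-high set, and transcripts of proliferation genes were found in part of the cells. A cell was scored as cycling if 2 or all 3 of the genes Top2a, Mki67 and Birc5 had a UMI in it. These encode a DNA topoisomerase, a marker of dividing nuclei and survivin. In the counts as deposited the score was met by 254 of 1331 Ltf-high neutrophils (19.1%, 17.0 to 21.3). At 3000 UMIs per cell, for which 19 shallower cells were left out, it was met by 15.6% (13.6 to 17.6) of the Ltf-high neutrophils, 60.3% (55.2 to 65.1) of Ltf-high, precursor-high cells, 46.8% (40.4 to 53.0) of Ltf-low, precursor-high cells and 7.00% (4.81 to 9.81) of Ltf-low, precursor-low cells. Chondrocytes stood at 6.83%. B cells, which include dividing precursors, stood at 31.2%, with 1190 of 2869 too shallow and left out, and at 20.5% unthinned. Among the 686 Ltf-high neutrophils with at least 1600 genes, the floor the study used, the share was 29.2%. Without mixed barcodes the shares were 14.8% in the Ltf-high neutrophils and 2.44% in Ltf-low, precursor-low cells.

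The genes of DNA synthesis and of mitosis differed in degree. All 42 S phase genes that could be compared were at least 2-fold lower in the Ltf-high neutrophils than in Ltf-high, precursor-high cells (median log2 ratio -1.92), and 25 of 53 G2/M genes were (median -0.98). Of all genes, 7.93% were lower there. Against Ltf-low, precursor-high cells 42 of 43 S phase genes were lower (median -2.12) and 14 of 53 G2/M genes (median -0.62), where 27.6% of all genes were. Rrm2, a subunit of the reductase that makes DNA precursors, was at 207 CPM in Ltf-low, precursor-high cells, 226 in Ltf-high, precursor-high cells and 41.4 in the Ltf-high neutrophils, and Mki67 at 297, 640 and 331. Against Ltf-low, precursor-low cells the S phase median was -0.30 over 40 genes with all barcodes and 0.87 over 38 genes without mixed barcodes, and the G2/M median was 0.53 and 1.84. With all barcodes 1 S phase gene was at least 2-fold higher and 8 lower, and without mixed barcodes 16 were higher and none lower. For G2/M genes 7 of 51 and 39 of 50 were higher and none lower. Of all genes, 4.68% were higher and 15.9% lower with all barcodes, and 10.7% and 11.9% without mixed barcodes. The direction of the S phase genes in that comparison thus depended on mixed barcodes, which make up 21.1% of the Ltf-low, precursor-low set.

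The Ltf-high neutrophils that met the score differed from the rest in more than the 3 genes scored. Without mixed barcodes 214 cells met it and 990 did not, with median depths of 13205 and 5903 UMIs. Among genes not in the score, Cdk1, the mitotic kinase, was at 202 CPM in the first and 3.43 in the second, Cdca8 at 215 and 2.65 and Ube2c at 523 and 10.1. The scored cells also held more Cebpe (337 against 143), Fcnb (203 against 70.5, below the limit by selection) and Chil3 (10164 against 5061). They held less Mmp8 (140 against 1717), Mmp9 (273 against 1506), Retnlg (2363 against 15994), Cxcr2 (33.9 against 164) and Fpr1 (21.1 against 200). Over all 1331 cells, 15.7% of the scored and 8.08% of the other cells were mixed barcodes. With mixed barcodes kept, the share with the score was 14.3% at 3000 UMIs after doublets called by Scrublet were left out. It was 12.9% at 2000 UMIs with those doublets kept. Whether scored cells divide was not measured.

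**Figure D4:**
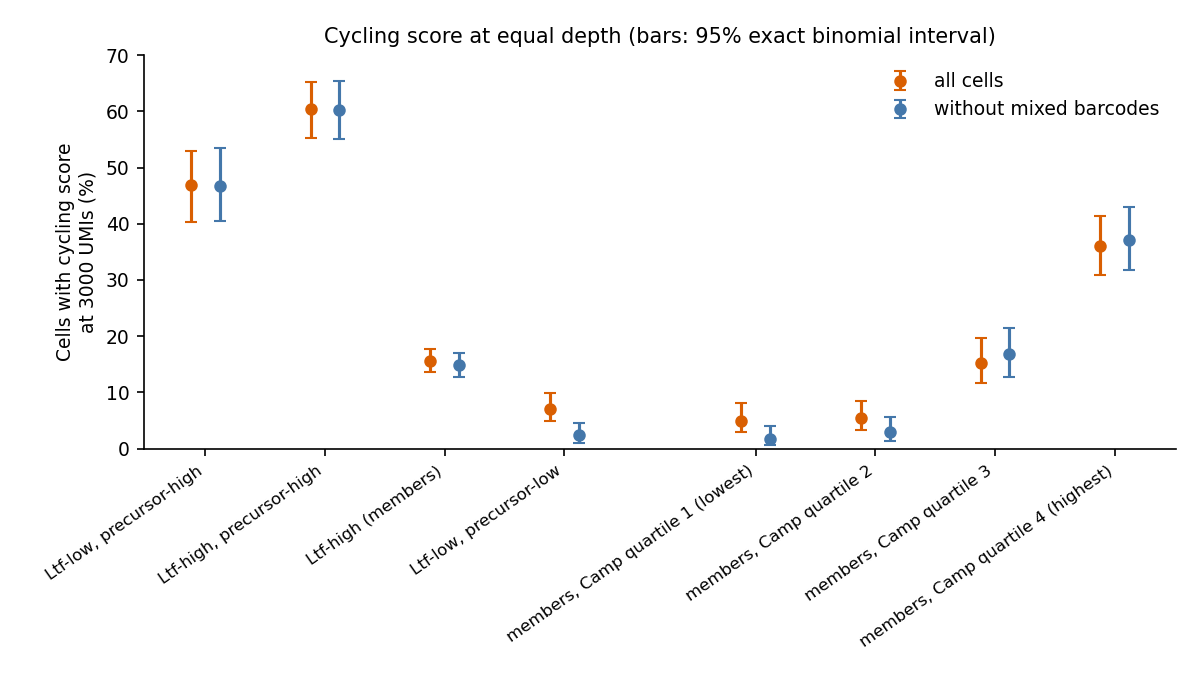
Share of cells in percent (vertical) with a UMI of 2 or more among Top2a, Mki67 and Birc5 after thinning to 3000 UMIs, in the 4 sets and in quartiles of Camp per cell among the Ltf-high neutrophils (horizontal), for all cells (orange) and without mixed barcodes (blue), with bars for the 95% exact binomial interval. Over all cells the share is 15.6% in the Ltf-high neutrophils and 36.1% in their highest Camp quartile.

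The Ltf-high neutrophils were not uniform, and the cells could be laid out by Camp, which the rule did not use. Camp ranged from 15.2 to 1007 UMIs per 10000 per cell with quartiles at 228, 398 and 568. From the lowest to the highest quartile of the 1204 cells without mixed barcodes, Retnlg was at 30023, 16262, 6824 and 3417 CPM, Mmp8 at 2894, 2128, 778 and 163 and Cxcr2 at 313, 170, 72.0 and 36.8. Cebpe was at 54.5, 114, 211 and 329, Fcnb at 6.66, 37.9, 112 and 211, Chil3 at 1536, 4266, 7710 and 9923 and Mki67 at 64.8, 112, 319 and 548. Cells with the most Camp thus held less Retnlg, Mmp8 and Cxcr2 and more Cebpe, Chil3 and Mki67, while Fcnb was used and limited by the rule and is given as a description. The lowest quartile held Mmp8 at 2894 and the Ltf-low, precursor-low cells without mixed barcodes at 2100.4. The share with the cycling score at 3000 UMIs was 1.63%, 3.01%, 16.8% and 37.1%. Median depth was 4735, 5617, 7282 and 9163 UMIs.

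**Figure D5:**
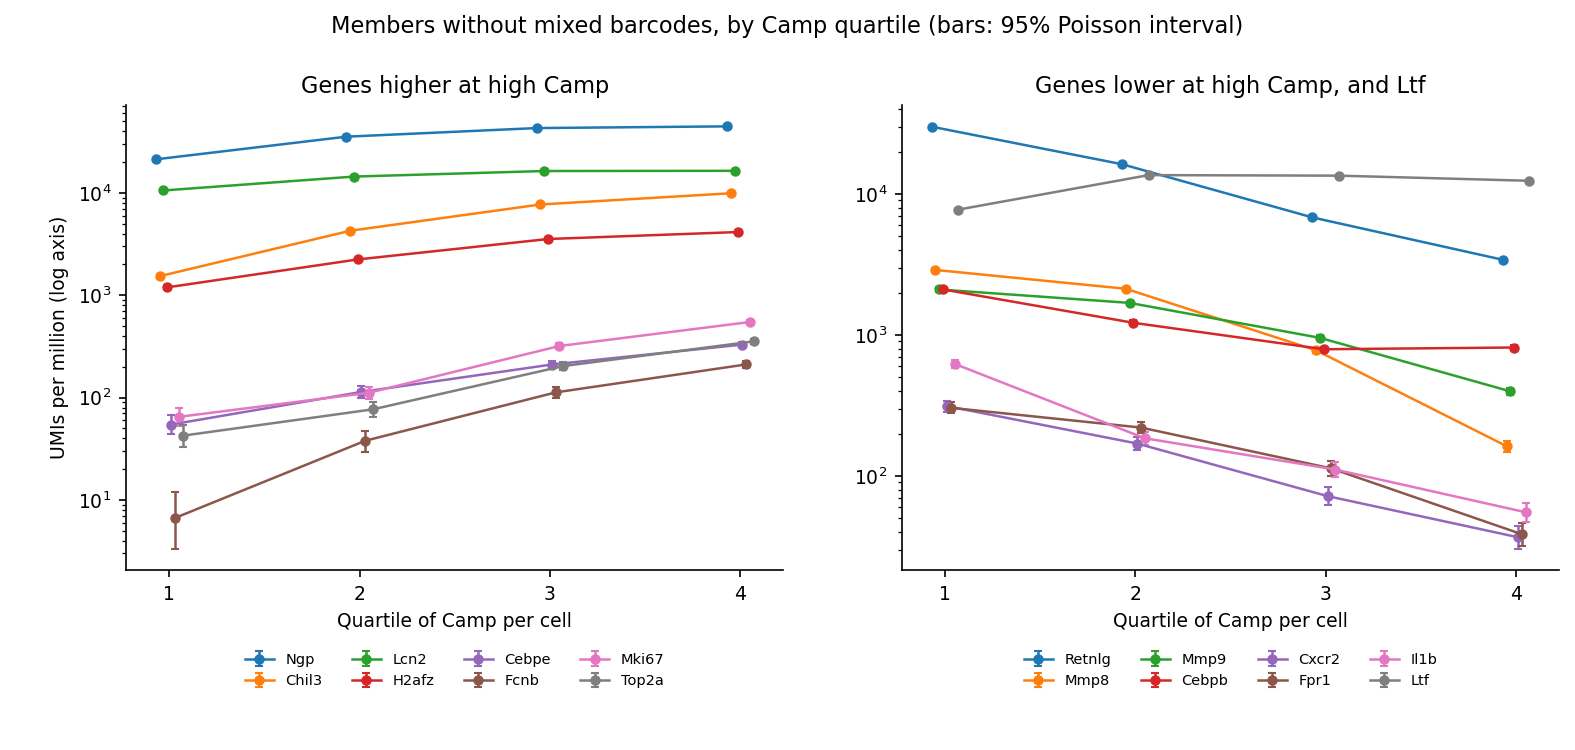
Summed level in CPM on a log axis (vertical) in the quartiles of Camp per cell (horizontal) among the 1204 Ltf-high neutrophils without mixed barcodes, with bars for the 95% Poisson interval. Cebpe, Fcnb, Mki67 and Chil3 are higher in each successive quartile, Retnlg, Mmp8, Mmp9, Cxcr2, Fpr1 and Il1b are lower, and Ltf is lowest in the first quartile.

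Ltf itself did not follow the same layout. In the same quartiles it was at 7751, 13614, 13492 and 12410 CPM, and Ly6g at 480, 720, 684 and 426, so that both were highest in the middle quartiles. Laid out by Ltf instead, 2.99% of 361 cells without mixed barcodes at 150 or more per 10000 met the cycling score at 3000 UMIs, against 19.6% of 478 cells at 100 to 150, 27.0% of 248 cells at 50 to 100 and 3.90% of 98 cells at 20 to 50 (7, 4, 5 and 3 shallower cells were left out). With mixed barcodes the lowest range stood at 12.2% (7.32 to 19.5) of 128 cells and the highest at 2.98% of 363. The cells with the most Ltf held Mki67 at 74.3 CPM and Mmp8 at 1589, and those at 50 to 100 held Mki67 at 475 and Mmp8 at 990. The layouts by Camp and by Ltf share the cells, and the ranges of Ltf were cut on the gene that selected them.

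The limits cut through a continuous range for Ltf and Fcnb but not for S100a8. The 24 cells just inside the Ltf limit, at 20 to 25 per 10000, held Lcn2 at 5731, Camp at 10673 and Retnlg at 16936 CPM, and the 28 cells just outside it, at 15 to 20, held 5041, 5629 and 26217. The 60 cells with Fcnb at 4 to 5 held Camp at 63655 and Retnlg at 2713, and the 42 otherwise eligible cells with Fcnb at 5 to 6 held 69372 and 2335. The lowest S100a8 among the Ltf-high neutrophils was 127 per 10000, and none held the sum of Elane, Prtn3 and Mpo at 20 to 40.

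The genes with the largest ratios were in part low in count or borne by few cells. Among the 10 highest against all Ltf-low cells, AA467197 was at 422 against 39.6 CPM (log2 ratio 3.41, 3.25 to 3.59) and was found in 1163 of the Ltf-high neutrophils, Fmnl2, which encodes a formin, at 61.7 against 3.65 in 475, and Krt81, a keratin gene, at 317 against 34.5 in 506. Tmem45a2 had 194 UMIs in 113 cells against 1 UMI in Ltf-low cells (log2 ratio 7.06, 4.56 to 12.4). Without mixed barcodes it had 167 UMIs against 0, a log2 ratio of at least 5.25 with 3 counts set for the Ltf-low cells together. Against Ltf-low, precursor-low cells the highest with over 1000 UMIs was Orm1, an acute-phase protein gene, at 174 against 3.94 CPM (log2 ratio 5.47, 4.62 to 6.47). Against Ltf-high, precursor-high cells the 5 highest were Sox9, Hspg2, Fkbp10, Mia and Meltf, which were found in 12 to 26 of the 1331 cells. Sox9, the master factor of chondrocytes, had 269 UMIs in 26 cells with a log2 ratio of 7.20 (4.71 to 12.5). Without mixed barcodes Sox9 had 43 UMIs in both sets together, Mia 21, Hspg2 10, Meltf 8 and Fkbp10 6, all under the minimum of 50 for a comparison. The lowest in every comparison with precursor-high cells included Cst7, which encodes cystatin F, with 9 UMIs in the Ltf-high neutrophils, 47 in Ltf-high, precursor-high cells and 874 in Ltf-low, precursor-high cells.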

How the data were processed

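Cells of mouse tibia were profiled by 10X Chromium single-cell RNA sequencing. The authors deposited unnormalised UMI counts. Per the file headers, these came from Cell Ranger 3.1.0 and genome build mm10 (annotation release: not given in the sources used here). Cells under 1600 genes and Ptprc-expressing clusters were removed in the study. Here the floor was 1000 genes and blood cells were kept. The mouse matrix holds 31053 genes, 12564 barcodes and 91463572 UMIs, of which the Ltf-high neutrophils hold 11181435. No columns were left unmapped.

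The members and gene lists were chosen with earlier results of these data known. Each of the 15 lists holds genes of 1 function (251 genes together), and any list gene may be named. Also named are the 10 highest and 10 lowest log2 ratios against all Ltf-low cells and the 5 highest and 5 lowest against each other set, where no single cell holds over 25% of the UMIs. Cdca8, Cdk1 and Ube2c were picked from the lists after their values were seen. Ribosomal protein genes, and the layout by Camp and Ltf, were likewise chosen after values were seen.

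UMIs were summed per set and given per 1000000 (CPM), with exact Poisson intervals, exact (Clopper-Pearson) binomial intervals of shares and exact conditional intervals of ratios, all at 95%. Genes with at least 50 UMIs in both sets together entered a comparison. The rule's genes (Ltf, S100a8, Fcnb, Elane, Prtn3, Mpo) and mitochondrial genes did not. A gene at 0 UMIs in 1 set was set to 3 counts there. Shares at equal depth were means over 100 random thinnings to 3000 UMIs for the cycling score and exact hypergeometric expectations for single genes. Doublets were called with Scrublet (scanpy 1.11.5, expected rate 8%), which marked 296 of 7989 barcodes (3.71%) and 114 of the 1331 Ltf-high neutrophils (8.56%), 63 of them among the 127 mixed barcodes. They were kept, and left out as an alternative. Coordinates are of RefSeq promoter windows in GRCm38.p6. Scripts ran in Python 3.11.15 with NumPy 2.4.6 and SciPy 1.17.1, and the ratios and their intervals were tested on simulated counts. Thinning was checked on measured counts of Ltf-high neutrophils, with a function other than those that gave the shares.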

Additional observations from a re-analysis of the deposited data

Results flagged for a closer look

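The matrix of exogenous sequences, which no comparison above uses, held signal in the Ltf-high neutrophils. WPRE, the viral element at the end of the tdTomato transcript, was at 58.3 UMIs per 1000000 in the 1331 cells, with a UMI in 33.7% of them and in 16.5% at 3000 UMIs. B cells, which should lack the reporter, were at 51.0 UMIs per 1000000 and 14.7% at 3000 UMIs, and chondrocytes at 404 and 22.5%. More than 14 UMIs were found in 2 of the Ltf-high neutrophils and in 50 of the 364 chondrocytes. TDT itself was at 1.61 UMIs per 1000000 in the Ltf-high neutrophils, 0.676 in B cells and 20.2 in chondrocytes. The level per 1000000 UMIs was uneven among the S100a8-high cells, while the share of cells with a UMI before thinning was nearly even. WPRE was at 27.6 (23.2 to 32.7) in Ltf-low, precursor-high cells, 31.9 (27.6 to 36.7) in Ltf-high, precursor-high cells, 58.3 (53.9 to 63.0) in the Ltf-high neutrophils and 117 (105 to 131) in Ltf-low, precursor-low cells, against 47.4 to 54.8 as the interval in B cells. In these 4 sets 39.2%, 34.4%, 33.7% and 35.6% of cells had a UMI without thinning, at median depths of 18955, 14847, 6697 and 4060 UMIs. At 3000 UMIs the shares were 8.37%, 9.48%, 16.5% and 24.5%. The source of this signal was not tested. No UMI of CRE was found in the 1331 cells, where 3 counts would be 0.225% of cells and the exact binomial upper limit is 0.277%.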

How the results depend on the processing

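No replicate could be left out and no paired analysis was possible because the barcodes of all samples form 1 pool. Of 48 counts and shares under alternatives 37 stayed within 1.5-fold of the main count, or within the interval of the main share. The study's floor of 1600 genes left 686 members of 1331, with 663 genes at least 2-fold higher than in Ltf-low cells in place of 388 and a cycling score in 29.2% in place of 15.6%. The cycling share was 19.1% with no thinning and 12.9% when thinned to 2000 UMIs. Genes at least 2-fold lower, 2109 in the main comparison, numbered 1131 without other-lineage barcodes, 1176 with a minimum of 200 UMIs, 3608 with only 1 UMI asked of each group, where 956 were higher, and 1357 against Ltf-low cells below both precursor limits. Totals without S100a8, S100a9 and globins, an alternative chosen after seeing the data, gave 644 higher and 1505 lower. They moved the log2 ratios of all genes up by 0.23 against all Ltf-low cells, by 0.13 against the Ltf-low, precursor-low and 0.29 against the Ltf-low, precursor-high cells, and by 0.03 against Ltf-high, precursor-high cells. Of 728 log2 ratios of 52 named genes against Ltf-low cells under 14 alternatives, 361 moved outside the counting interval of the main value and 2 reversed a 2-fold call, both where only Ltf-low cells below both precursor limits were compared: Mmp9 at -0.32 and Sec61b at 0.022. The pool of 3 mice and 1 suffix leaves the spread between animals unknown, and genes under 50 UMIs were not compared.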
